A study of Solanum lycopersicum with 9 samples.

Results

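The type 2C protein phosphatases (PP2Cs) of tomato leaves were described over 3 concentrations of p-hydroxybenzoic acid (PHBA), a phenolic acid that plants release and that can inhibit the growth of their neighbours. A PP2C was taken to be a sequence of the assembled transcriptome whose deposited annotation held the Pfam domain PF00481 (protein phosphatase 2C) and whose level reached 0.5 FPKM, fragments scaled to transcript length and to the total mapped fragments of the library, in 3 or more libraries. Of 59 sequences with the domain, 57 met this rule, among 44203 sequences of the whole table that did. The libraries came from leaves of the tomato (Solanum lycopersicum) cultivar Diana, from plants a month after planting. Plants had received 0 mM PHBA (control, 3 libraries), 15 mM PHBA (3 libraries) or 30 mM PHBA (3 libraries) for 2 days, and no genetic change was named for any group. RNA of a treatment was pooled before sequencing and nothing states that libraries of a group came from separate plants, so p-values describe spread among libraries alone, and that spread may be technical.

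PP2Cs are monomeric phosphatases that need magnesium or manganese and remove phosphate from serine and threonine. Plants have far more of them than animals do. In Arabidopsis, the clade A enzymes, such as ABI1 and HAB1, hold SnRK2 kinases inactive, and the hormone abscisic acid (ABA) relieves this block by binding PYR/PYL receptors that then inhibit the phosphatases. Several clade A genes of Arabidopsis are themselves induced by ABA. Other PP2C clades of that species act on mitogen-activated protein kinases, receptor kinases or the plasma membrane proton pump.

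The annotation did not separate these clades. Its KEGG column gave 56 of the 57 PP2Cs a single name, K04348, the catalytic subunit of calcineurin, which is a phosphatase of another family (PPP) in animals. The other member carried K01595, phosphoenolpyruvate carboxylase. The KEGG entry for the PP2Cs of ABA signalling was carried by 0 sequences, so no member could be marked as an ABA signalling phosphatase, and members are called here by their sequence names. The domain annotation itself bore out the label of the family. All 57 members carried the ProSite profile of the PPM-type phosphatase domain (PS51746), 54 carried the CDD domain cd00143 and 50 the SMART domain SM00332. PF00481 was the only Pfam domain in 53 members, and 4 carried a further one. No pair of members shared a Trinity component, which is a group of contigs assembled together and often from 1 gene. Components were matched with the prefix of the sequence name included, so members with different prefixes could not share one. Whether such members come from 1 gene was not tested.

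Most PP2Cs stood at a few FPKM, which is above the middle of the whole table. Their mean level over the 9 libraries ranged from 0.449 to 19.6 FPKM, with a median of 2.72 FPKM and quartiles of 1.84 and 4.34 FPKM. Over all 44203 sequences the median was 0.984 FPKM and the upper quartile 2.08 FPKM, which is below the PP2C median. Of all sequences, 22448 had a mean under 1 FPKM. A mean of 5 FPKM or more was found for 10 members, and a mean under 1 FPKM for 8. The level was at least 0.5 FPKM in all 9 libraries for 51 members. The member just inside the rule, T30_1_TRINITY_DN5033_c1_g1, had 0.22, 0.25 and 0.14 FPKM in control leaves, 0.11, 0.09 and 0.75 FPKM at 15 mM, and 1.39, 0.35 and 0.74 FPKM at 30 mM. Just outside it, T30_2_TRINITY_DN1616_c0_g1 reached 0.5 FPKM in 2 libraries and T15_1_TRINITY_DN253_c1_g2 in 1 library, with highest levels of 0.88 and 0.63 FPKM. Neither of those 2 was tested.

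The summed level of the 57 PP2Cs was 143, 156 and 165 FPKM in the control libraries, 211, 168 and 242 FPKM at 15 mM, and 265, 240 and 233 FPKM at 30 mM. All 6 treated libraries lay above all 3 control libraries, and the 15 mM libraries spread from near the highest control to within the 30 mM range. The 5 most abundant members made up 28.0% to 32.2% of this sum. Most of the spread at 15 mM ran through the whole family: replicate 2 was the lowest of its group in 45 of 57 PP2Cs and replicate 3 the highest in 45. The same replicate 2 was lowest in 74.0% of the 13634 annotated sequences and in 50.1% of all sequences, so this order was not limited to PP2Cs. Per library, the median difference of a PP2C from its mean over the control libraries, on the log2(FPKM + 1) scale, was 0.27, 0.10 and 0.45 at 15 mM and 0.49, 0.40 and 0.33 at 30 mM. The same median over all sequences was 0.15, 0.01 and 0.26 at 15 mM and 0.26, 0.21 and 0.06 at 30 mM.

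**Figure D1:**
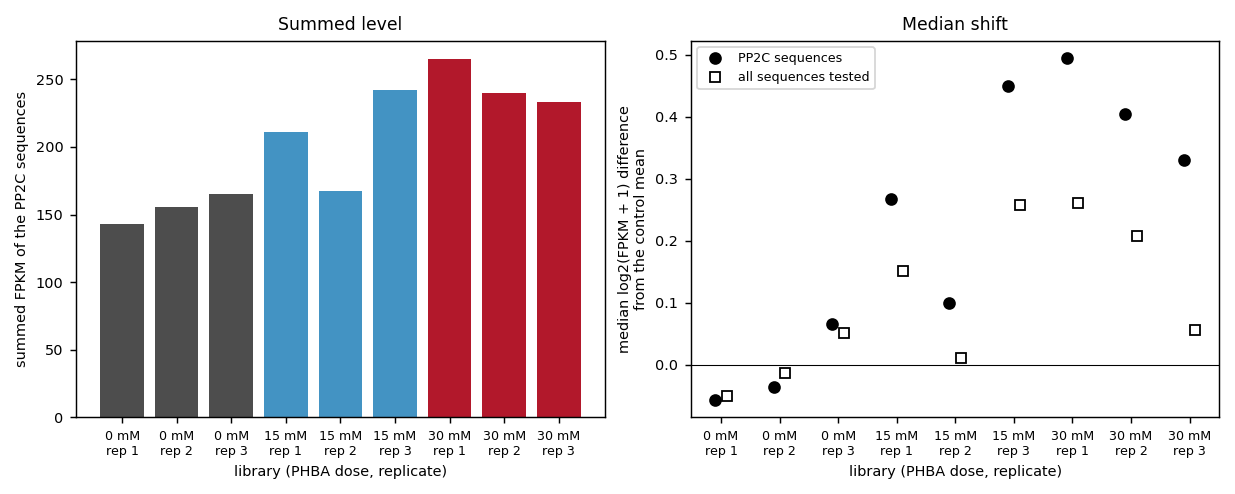
PP2C levels by library (PHBA dose and replicate on the x axis): bars on the left give the summed FPKM of the 57 PP2Cs, and on the right filled circles (PP2Cs) and open squares (all sequences tested) give the median log2(FPKM + 1) difference from the control mean. The bars span 143 to 165 FPKM for control, 168 to 242 FPKM for 15 mM and 233 to 265 FPKM for 30 mM, and the circle lies above the square in each treated library.

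The table held FPKM without counts, so read depth is unknown in absolute terms. Relative depth was estimated from sequences above 0 in at most 4 libraries, with 0.3 FPKM or more in both libraries compared. It was the inverse of their most common FPKM ratio to control replicate 1, which was set to 1. Controls stood at 0.966 to 1.22, the 15 mM libraries at 0.979 to 1.14 and the 30 mM libraries at 0.889 to 1.16. The 4 most abundant sequences of the table took 39.4% to 45.0% of all FPKM in controls, between 26.9% and 44.6% with 15 mM PHBA and between 33.5% and 42.4% with 30 mM, with 44.6% in the 15 mM replicate that was low for PP2Cs. Markers checked the tissue. All 24 chlorophyll a-b binding sequences (PF00504) of the table passed the filter, with sums of 4897 to 7559 FPKM in control leaves, 4162 to 5679 FPKM at 15 mM and 1821 to 2906 FPKM at 30 mM. The RuBisCO small chain sequence had 89.7 to 141 FPKM in control leaves, 75.7 to 119 FPKM at 15 mM and 50.9 to 96.4 FPKM at 30 mM. Of 14 terpene synthases (glandular trichomes), 9 passed the filter and the sum was 6.02 to 7.21 FPKM in control leaves, 5.72 to 7.36 FPKM at 15 mM and 8.62 to 9.55 FPKM at 30 mM. The pollen list summed to 164 to 189 FPKM in control leaves, 210 to 261 FPKM at 15 mM and 323 to 367 FPKM at 30 mM, but 37 of its 68 sequences were lectin kinase types listed only for a function in recognition of pollen. Its 6 sequences with the pollen protein domain PF01190 summed to 28.4 to 45.2 FPKM in control leaves, 30.8 to 43.0 FPKM at 15 mM and 25.4 to 38.3 FPKM at 30 mM. Of 17 sequences of the Casparian strip family, listed for root endodermis, 16 passed the filter, with sums of 45.6 to 52.3 FPKM in control leaves, 43.6 to 67.8 FPKM at 15 mM and 48.1 to 66.4 FPKM at 30 mM, and the seed storage protein list had 0 members. The Casparian strip and terpene synthase lists held every sequence with the domain, and no sequence in them was assigned to a cell type. Their levels therefore do not show that such cells were present. At 30 mM the chlorophyll a-b binding sums were thus lower than in control leaves, and the trichome and pollen list sums higher, without overlap, and their part in the PP2C result was not tested. In such bulk samples, fewer cells of a type and less RNA per cell cannot be told apart.

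At 30 mM, 15 of the 57 PP2Cs rose against control, 0 fell and 42 did not pass the test. The test was limma on log2(FPKM + 1) over all 44203 sequences, called at a Benjamini-Hochberg adjusted p under 0.05. The 15 members are 26.3% of the family. In the same comparison, 11.8% of all sequences were called in either direction, 10% were higher and 1.75% lower, and among annotated sequences 21.1% were higher and 2.95% lower. The share of PP2Cs called thus lay near that of annotated sequences. The median log2 fold change was 0.42 for PP2Cs, 0.30 for annotated sequences and 0.18 for all sequences. A value above 0 was found for 48 PP2Cs (84.2%), beside 77.2% of annotated and 67.2% of all sequences. These sets were not matched for level. Among sequences with a mean of 5 FPKM or more, the median was 0.49 for 10 PP2Cs and 0.44 for all 4548. In that fit 4 of the 10 PP2Cs and 2025 of the 4548 sequences were called higher. In 37 PP2Cs (64.9%) all 30 mM libraries lay above all control libraries, against 47.3% of annotated and 25.9% of all sequences, and in 1 PP2C all lay below, against 7.92% of annotated and 6.04% of all sequences. Under 2 other scalings that set the median of all sequences near 0, some members were called lower: quantile normalization gave 8 higher and 2 lower, and median-of-ratios rescaling 9 higher and 2 lower. Rescaling without the 4 most abundant sequences gave 16 higher and 1 lower. Over all sequences the split moved from 4425 higher and 775 lower on the deposited scale to 2486 higher and 2410 lower under quantile normalization, 2833 higher and 2306 lower under median-of-ratios rescaling, and 4542 higher and 1483 lower without the 4 most abundant sequences.

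Of the 15 that rose, 8 were also called under every alternative scaling, pseudocount, filter and model they could be tested in and with any 1 library left out. The share of all sequences that stayed called in this way was not computed, for this or the other comparisons. Whether 8 is many is therefore not known. The summed level of the 8 was 12.7, 14.2 and 15.1 FPKM in control leaves, 27.6, 22.6 and 28.7 FPKM at 15 mM, and 54.6, 50.5 and 56.5 FPKM at 30 mM, so the 3 groups did not overlap. The 8 were chosen by the 30 mM against control contrast, so their separation there is a description. They are given in order of their fold change at 30 mM. The annotation gives none of them a clade or a function beyond the phosphatase domain and the KEGG name K04348.

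T30_3_TRINITY_DN975_c0_g1 had 1.09, 1.16 and 1.95 FPKM in control leaves, 2.23, 2.26 and 1.66 FPKM at 15 mM, and 11.41, 9.83 and 10.34 FPKM at 30 mM. It stood low in control and 15 mM leaves, where the groups overlapped, and high in every 30 mM library. Against control, the log2 fold change at 30 mM was 2.28 ± 0.17 (SE), with a limma adjusted p of 1.9e-04, and its mean FPKM was 7.52 times that of control leaves.

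T15_3_TRINITY_DN5168_c0_g3 had 1.02, 0.74 and 0.66 FPKM in control leaves, 1.61, 1.74 and 2.56 FPKM at 15 mM, and 4.51, 3.96 and 5.79 FPKM at 30 mM. The 3 groups did not overlap and stood in the order of dose. The log2 fold change at 30 mM against control was 1.66 ± 0.18 (SE, limma adjusted p = 8.9e-04), a 5.89-fold ratio of mean FPKM.

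T15_2_TRINITY_DN4360_c0_g1 had 1.32, 1.59 and 2.15 FPKM in control leaves, 3.95, 3.48 and 3.57 FPKM at 15 mM, and 6.15, 7.73 and 7.20 FPKM at 30 mM. Again the groups were apart and in dose order. At 30 mM against control the log2 fold change was 1.59 ± 0.15 (SE, limma adjusted p = 5.1e-04) and the ratio of means 4.17.

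T30_1_TRINITY_DN7596_c0_g1 had 0.59, 0.68 and 0.72 FPKM in control leaves, 1.40, 0.90 and 1.53 FPKM at 15 mM, and 2.73, 3.56 and 4.08 FPKM at 30 mM, with no overlap between groups. Its log2 fold change at 30 mM against control was 1.41 ± 0.17 (SE, limma adjusted p = 0.0014) and its ratio of means 5.21. T30_1_TRINITY_DN6561_c0_g1 had 1.12, 0.77 and 1.07 FPKM in control leaves, 1.99, 1.92 and 1.29 FPKM at 15 mM, and 4.06, 3.24 and 4.69 FPKM at 30 mM, also without overlap. The change against control was 1.32 ± 0.17 (log2, SE, limma adjusted p = 0.00191) and its ratio of means 4.05.

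TCK_3_TRINITY_DN8619_c0_g1 was the most abundant of the 8. It had 4.08, 5.10 and 5.15 FPKM in control leaves, 9.71, 7.06 and 10.96 FPKM at 15 mM, and 12.55, 12.87 and 14.04 FPKM at 30 mM. The groups were apart, and the 15 mM libraries lay nearer to 30 mM than to control in replicates 1 and 3. Its log2 fold change at 30 mM was 1.30 ± 0.16 (SE, limma adjusted p = 0.00167) against control, a ratio of means of 2.75. A second contig of its Trinity component, without an annotation, had 2.35, 2.30 and 2.93 FPKM in control leaves, 3.60, 3.11 and 3.14 FPKM at 15 mM and 5.30, 4.82 and 5.82 FPKM at 30 mM, and how reads were divided between the 2 contigs is uncertain.

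T15_2_TRINITY_DN2576_c0_g1 had 2.29, 2.20 and 2.16 FPKM in control leaves, 3.81, 2.67 and 4.23 FPKM at 15 mM, and 8.96, 5.37 and 5.87 FPKM at 30 mM, where replicate 1 was the highest. Its log2 fold change at 30 mM against control was 1.24 ± 0.20 (SE, limma adjusted p = 0.00527) and its ratio of means 3.04. TCK_2_TRINITY_DN6181_c0_g1 had 1.15, 1.97 and 1.24 FPKM in control leaves, 2.87, 2.55 and 2.94 FPKM at 15 mM, and 4.26, 3.92 and 4.49 FPKM at 30 mM. At 30 mM the log2 change against control was 1.10 ± 0.15 (SE, limma adjusted p = 0.0026) and its ratio of means 2.91. Both members had groups that did not overlap.

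**Figure D2:**
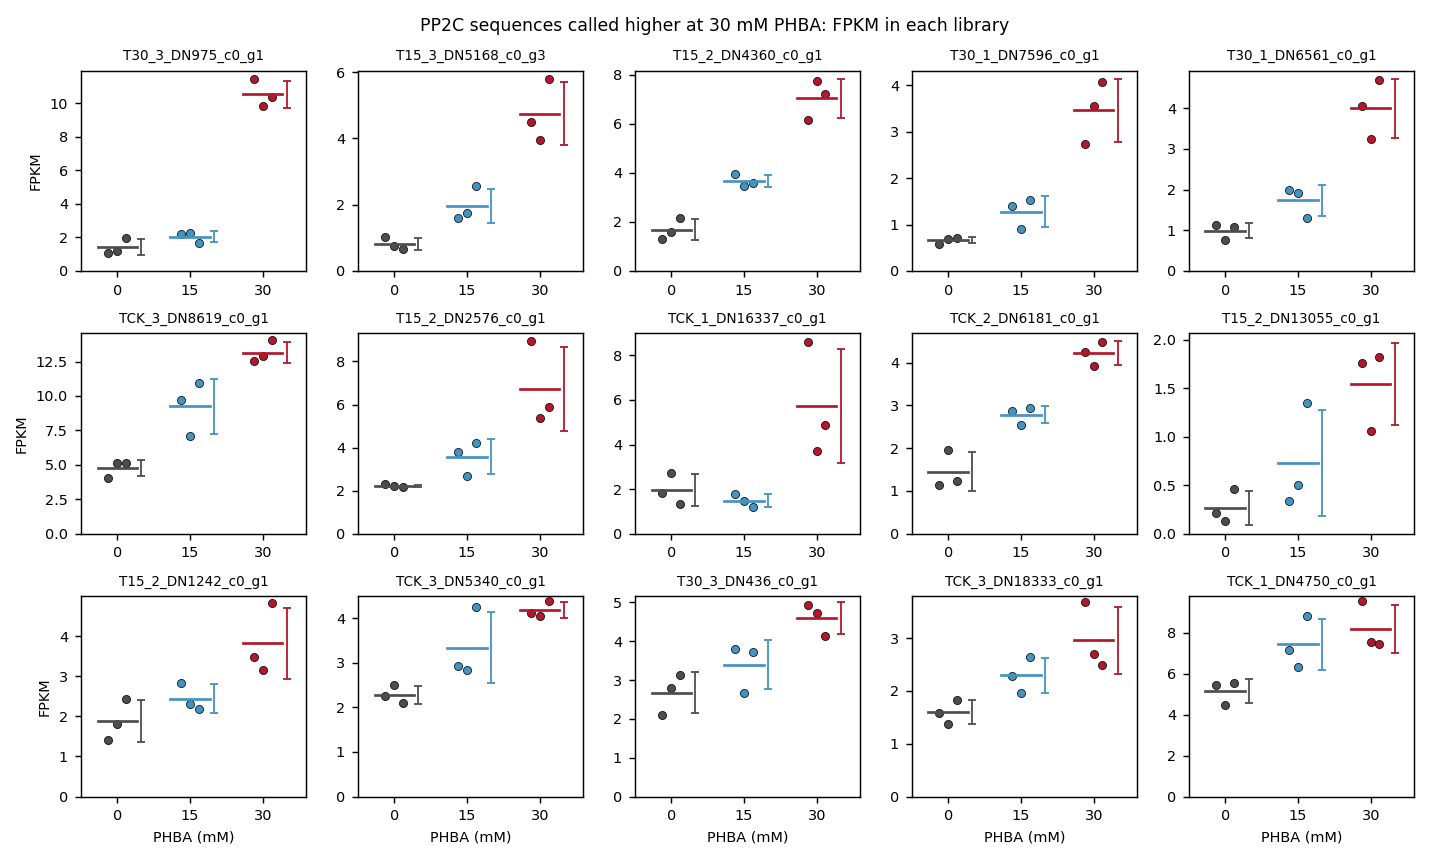
FPKM of the 15 PP2Cs that rose at 30 mM against control, 1 panel a member, against PHBA dose in mM, with 1 point a library, a horizontal line at each group mean and a vertical bar of ± 1 SD (n = 3); names are shortened by dropping the word TRINITY. In the panel of T30_3 DN975 the 30 mM libraries lie at 9.83 to 11.41 FPKM and all others at or below 2.26 FPKM, while in T15_2 DN4360 the 3 doses stand as separate steps.

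The other 7 members that rose at 30 mM lost the call under quantile normalization and in some fits that left out a library. Without 1 control or 30 mM library, calls over all sequences fell too, to between 2350 and 4261 from 5200. A call lost in such a fit thus does not by itself single out the library left out. TCK_1_TRINITY_DN16337_c0_g1 differed in pattern: it had 1.83, 2.73 and 1.33 FPKM in control leaves, 1.79, 1.49 and 1.18 FPKM at 15 mM, and 8.61, 3.71 and 4.88 FPKM at 30 mM. Its 15 mM libraries lay within or below the control range and its highest value was 30 mM replicate 1. The log2 fold change was 1.15 ± 0.27 (SE, limma adjusted p = 0.0293), with an adjusted p of 0.0579 to 0.0946 without 30 mM replicate 1 or 3 or control replicate 1 or 3. T15_2_TRINITY_DN13055_c0_g1, a low transcript with 0.21, 0.13 and 0.46 FPKM in control leaves, 0.34, 0.50 and 1.35 FPKM at 15 mM and 1.76, 1.06 and 1.82 FPKM at 30 mM, had a log2 fold change of 1.0 ± 0.25 (SE, limma adjusted p = 0.0316). It lost the call without 30 mM replicate 1 or 3 or any 1 control replicate (adjusted p = 0.0544 to 0.107).

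The remaining 5 had smaller changes. T15_2_TRINITY_DN1242_c0_g1 had 1.41, 1.81 and 2.44 FPKM in control leaves, 2.84, 2.31 and 2.18 FPKM at 15 mM, and 3.47, 3.16 and 4.82 FPKM at 30 mM. Its log2 fold change at 30 mM against control was 0.74 ± 0.19 (SE, limma adjusted p = 0.0348), and it lost the call without 30 mM replicate 1 or 3, 15 mM replicate 1 or control replicate 1 or 2 (adjusted p = 0.0534 to 0.128). TCK_3_TRINITY_DN5340_c0_g1 had 2.26, 2.50 and 2.09 FPKM in control leaves, 2.94, 2.84 and 4.25 FPKM at 15 mM, and 4.11, 4.06 and 4.38 FPKM at 30 mM, and 15 mM replicate 3 reached into the 30 mM range. It had a log2 fold change of 0.66 ± 0.15 (SE, limma adjusted p = 0.0225) and lost the call without 30 mM replicate 1 or 3 or any 1 control replicate (adjusted p = 0.0604 to 0.0814). Its component also holds another contig, with the same uncertainty over shared reads.

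T30_3_TRINITY_DN436_c0_g1 had 4.93, 4.73 and 4.13 FPKM at 30 mM and 2.10, 2.80 and 3.12 FPKM in control leaves. The log2 fold change was 0.61 ± 0.16 (SE, limma adjusted p = 0.0419), and it lost the call in 8 of the 9 fits that left out a library, all but the one without 15 mM replicate 2 (adjusted p = 0.0507 to 0.151). TCK_3_TRINITY_DN18333_c0_g1 had 3.68, 2.71 and 2.49 FPKM at 30 mM and 1.58, 1.38 and 1.83 FPKM in control leaves, and a log2 fold change of 0.60 ± 0.16 (SE, limma adjusted p = 0.0417). It lost the call without 30 mM replicate 1 or 2, 15 mM replicate 1 or any 1 control replicate (adjusted p = 0.0714 to 0.142). In both, every 30 mM library lay above every control library.

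TCK_1_TRINITY_DN4750_c0_g1 was the fifth most abundant PP2C, with 5.44, 4.48 and 5.57 FPKM in control leaves, 7.15, 6.33 and 8.82 FPKM at 15 mM, and 9.54, 7.57 and 7.44 FPKM at 30 mM. Its treated groups overlapped each other and lay above control. The log2 fold change at 30 mM was 0.57 ± 0.15 (SE, limma adjusted p = 0.045), and the call was lost without any 1 of the 30 mM or control replicates or without 15 mM replicate 1 (adjusted p = 0.0657 to 0.157).

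The 42 PP2Cs that did not pass the test at 30 mM held most of the family's abundance. Their sum was 116, 126 and 133 FPKM in control leaves, 162, 127 and 189 FPKM at 15 mM, and 174, 163 and 146 FPKM at 30 mM, while the 15 that rose summed to 27.5, 30.0 and 31.9 FPKM in control leaves, 48.7, 40.7 and 52.9 FPKM at 15 mM, and 90.7, 77.5 and 86.5 FPKM at 30 mM. The 15 were chosen by this contrast, so their separation is a description. Of the 42, 33 had a log2 fold change above 0 and 9 below, from -0.54 to 0.83.

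The 3 most abundant PP2Cs were among the 42. TCK_2_TRINITY_DN391_c0_g1 had 13.49, 16.87 and 15.19 FPKM in control leaves, 23.15, 15.95 and 27.27 FPKM at 15 mM, and 25.65, 19.30 and 19.86 FPKM at 30 mM. All its 30 mM libraries lay above control, but the log2 fold change of 0.48 did not pass the test (limma adjusted p = 0.172), and it was -0.03 under quantile normalization. T30_2_TRINITY_DN361_c0_g1 had 9.94, 13.36 and 12.25 FPKM in control leaves, 11.78, 9.38 and 12.33 FPKM at 15 mM, and 10.53, 14.28 and 7.83 FPKM at 30 mM. Its groups overlapped throughout, and the log2 fold change at 30 mM was -0.14 (limma adjusted p = 0.738). T30_2_TRINITY_DN5712_c0_g1 had 7.31, 8.13 and 9.84 FPKM in control leaves, 11.45, 9.53 and 14.22 FPKM at 15 mM, and 15.42, 10.94 and 11.63 FPKM at 30 mM. The log2 fold change of 0.53 missed the threshold (limma adjusted p = 0.103), although its 30 mM libraries were all above control. A second contig of its component, without an annotation, was listed at 0, 0 and 15.66 FPKM in control leaves, 11.54, 0 and 0 FPKM at 15 mM, and 11.54, 0 and 0 FPKM at 30 mM, so the division of reads between the 2 contigs is uncertain for this member too.

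The 4 members with a further Pfam domain were all among those not called. TCK_3_TRINITY_DN4650_c0_g1 carried a forkhead-associated domain, which binds phosphothreonine and is found beside the phosphatase domain in the kinase-associated protein phosphatase of Arabidopsis. It had 1.30, 1.82 and 1.71 FPKM in control leaves, 2.24, 1.68 and 2.75 FPKM at 15 mM, and 2.65, 2.85 and 2.14 FPKM at 30 mM (log2 fold change 0.44 at 30 mM, limma adjusted p = 0.133). T15_2_TRINITY_DN1614_c0_g1, with a protein kinase and a cyclic nucleotide-binding domain, had 3.30, 3.42 and 4.08 FPKM in control leaves, 4.46, 3.87 and 5.13 FPKM at 15 mM, and 5.97, 4.86 and 4.41 FPKM at 30 mM (0.40, adjusted p = 0.125 by limma). In both, the 30 mM libraries lay above the control libraries by a margin that did not pass the test.

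T30_3_TRINITY_DN3513_c0_g1, with a protein kinase domain, was the steadiest of the 4, at 2.01, 1.92 and 2.41 FPKM in control leaves, 2.11, 2.02 and 2.51 FPKM at 15 mM, and 2.58, 2.55 and 2.18 FPKM at 30 mM. At 30 mM the log2 fold change was 0.14 (limma adjusted p = 0.558) and turned to -0.14 under quantile normalization. T30_2_TRINITY_DN2121_c0_g1 is the sequence that KEGG names phosphoenolpyruvate carboxylase, and its annotation also held that enzyme's domain. It had 1.15, 0.94 and 1.20 FPKM in control leaves, 2.15, 1.32 and 2.38 FPKM at 15 mM, and 1.95, 1.52 and 1.98 FPKM at 30 mM, with both treated groups above control and a log2 fold change of 0.42 at 30 mM (limma adjusted p = 0.161). Whether it is 1 transcript or 2 joined in the assembly was not tested.

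The member with the lowest fold change, named here after its values were seen, was T30_1_TRINITY_DN8594_c0_g1. It had 4.29, 4.51 and 4.81 FPKM in control leaves, 4.70, 3.21 and 6.35 FPKM at 15 mM, and 2.39, 3.42 and 2.70 FPKM at 30 mM. It was the single PP2C whose 30 mM libraries all lay below the control libraries. On the deposited scale its log2 fold change was -0.54 ± 0.20 (SE, limma adjusted p = 0.13). It was called lower under quantile normalization (log2 fold change -0.89, adjusted p = 0.00601 by limma), under median-of-ratios rescaling (-0.84, adjusted p = 0.00883) and without the 4 most abundant sequences (-0.67, adjusted p = 0.0247), so the call on this member depended on the scaling.

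**Figure D3:**
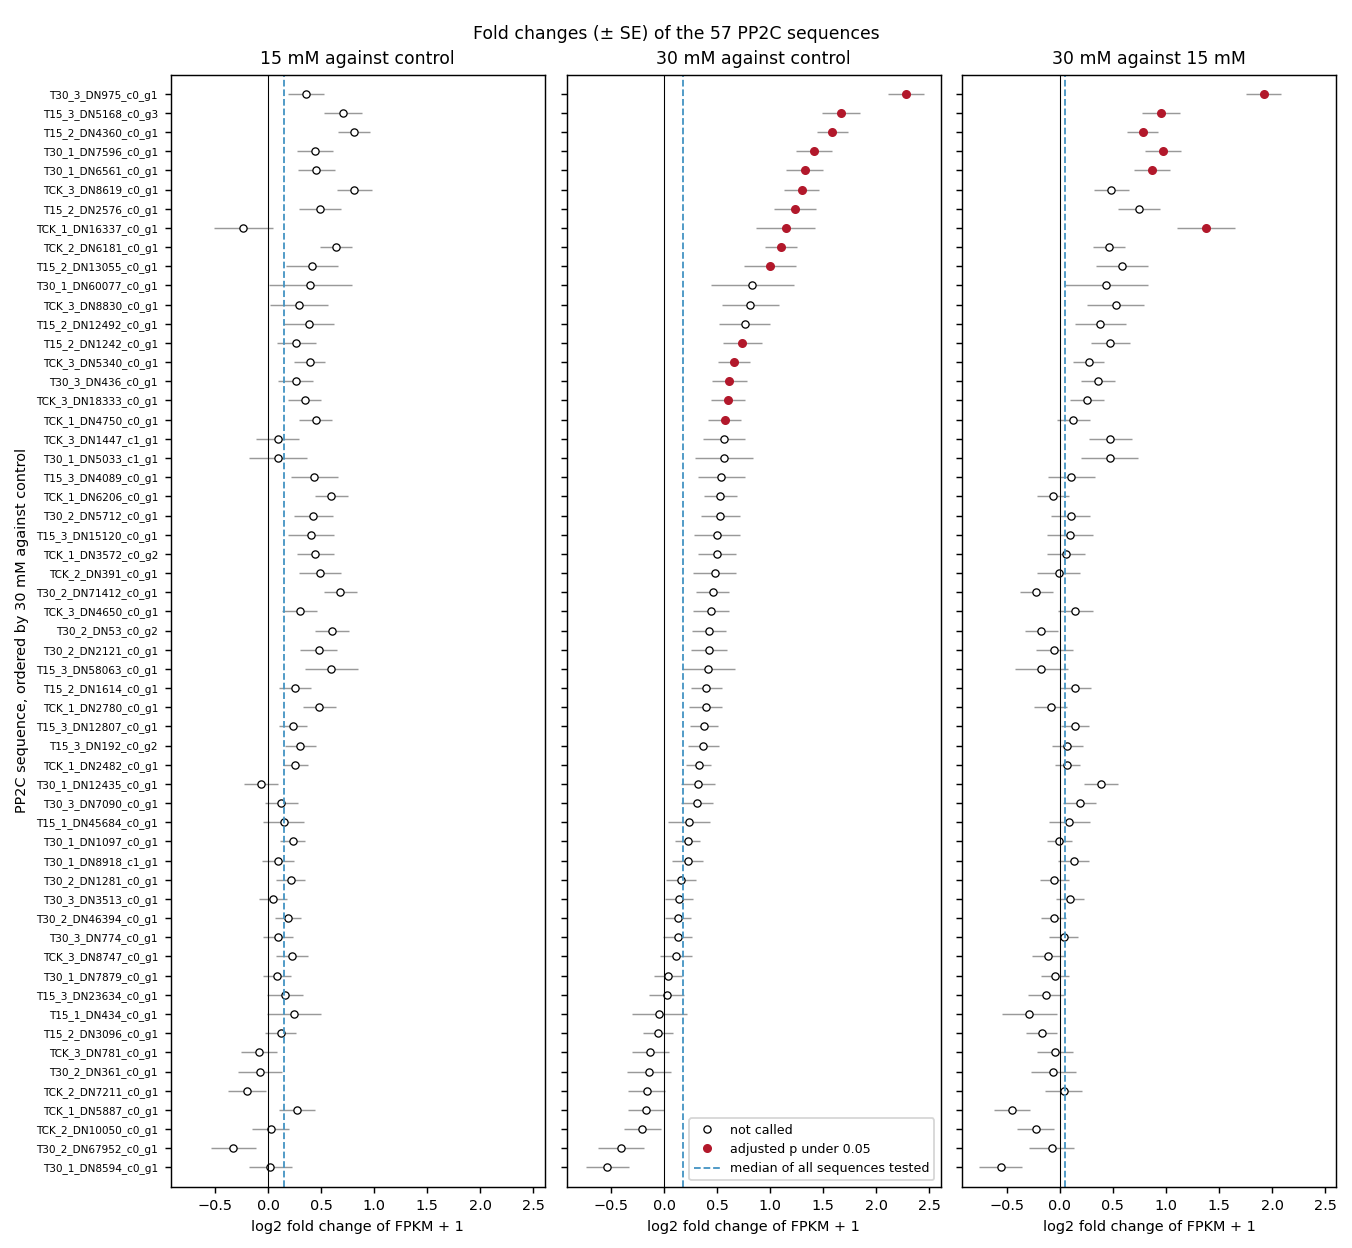
Log2 fold changes of FPKM + 1 (± SE) of the 57 PP2Cs, 1 row a member in the order of the 30 mM against control change, with names shortened by dropping the word TRINITY; filled points have an adjusted p under 0.05 and the dashed line is the median of all sequences tested. Filled points number 0 at 15 mM against control, 15 at 30 mM against control and 6 at 30 mM against 15 mM, all to the right of 0.

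At 15 mM, 0 of the 57 PP2Cs passed the limma test against control, in a comparison in which 0.0995% of all sequences were called, 0.0837% higher and 0.0158% lower, and among annotated sequences 0.132% were higher and 0% lower. At an unadjusted p under 0.05, 18 PP2Cs (31.6%) were higher and 0 lower, against 14.2% higher and 0.931% lower among annotated sequences and 8.95% higher among all. The median log2 fold change was 0.27 for PP2Cs, 0.19 for annotated sequences and 0.15 for all. A value above 0 was found for 51 of the 57 PP2Cs (89.5%), beside 82.6% of annotated and 70.7% of all sequences. The 15 mM libraries lay above all control libraries in 22 PP2Cs (38.6%), against 23.8% of annotated and 14.7% of all sequences. Both comparisons against control share the same 3 control libraries. The 8 members described first were chosen as higher than these same control libraries, so their values here are a description. Their log2 fold changes ran from 0.36 for T30_3_TRINITY_DN975_c0_g1 (limma adjusted p = 0.498) to 0.81 for T15_2_TRINITY_DN4360_c0_g1 (adjusted p = 0.109) and TCK_3_TRINITY_DN8619_c0_g1 (adjusted p = 0.134). The last of these passed the test without 15 mM replicate 2 (adjusted p = 0.0381), the replicate that was low for most of the family, and 4 PP2Cs did so when limma array weights were used. Calls over all sequences rose as well, from 44 to 135 without 15 mM replicate 2 and to 793 with array weights.

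Between the doses, 6 of the 57 PP2Cs (10.5%) were higher at 30 mM than at 15 mM and 0 lower, where 3.1% of all sequences were called in either direction, 2.41% higher and 0.69% lower, and among annotated sequences 4.81% were higher and 1.15% lower. All 6 were among the 15 that rose at 30 mM against control, a comparison that uses the same 30 mM libraries. T30_3_TRINITY_DN975_c0_g1 had a log2 fold change of 1.92 ± 0.17 (SE, limma adjusted p = 0.00184), a mean 5.13 times that at 15 mM, and was called in the 18 alternatives it could be tested in. Its mean level kept it out of the fit of sequences with 5 FPKM or more, which called 0 of 10 PP2Cs and 1010 of 4548 sequences. TCK_1_TRINITY_DN16337_c0_g1 had 1.38 ± 0.27 (SE, limma adjusted p = 0.0332), and T30_1_TRINITY_DN7596_c0_g1, T15_3_TRINITY_DN5168_c0_g3, T30_1_TRINITY_DN6561_c0_g1 and T15_2_TRINITY_DN4360_c0_g1 had 0.97, 0.96, 0.87 and 0.78. These 5 all lost the call without 15 mM replicate 1 or replicate 2, with adjusted p up to 0.103 over the fits that leave out a library. TCK_1_TRINITY_DN16337_c0_g1 also lost it without 30 mM replicate 1 or 3, 15 mM replicate 3 or control replicate 1, and T30_1_TRINITY_DN7596_c0_g1 without 30 mM replicate 3. T15_3_TRINITY_DN5168_c0_g3 lost it without 30 mM replicate 1 or 3 or control replicate 2. T30_1_TRINITY_DN6561_c0_g1 lost it without 30 mM replicate 1 or 3, 15 mM replicate 3 or control replicate 1 or 3, and T15_2_TRINITY_DN4360_c0_g1 without any 1 replicate at 30 mM, 15 mM replicate 3 or control replicate 2. Over all sequences, 518 were called without 15 mM replicate 1 and 820 without 15 mM replicate 2, against 1371 in the full fit. The median log2 fold change over the 57 PP2Cs was 0.10, beside 0.11 for annotated and 0.05 for all sequences, and 12 PP2Cs (21.1%) had 30 mM libraries above all 15 mM libraries, beside 21.3% of annotated and 12.6% of all sequences. By this median and this share the family lay near annotated sequences, while the share called higher was 10.5% beside 4.81%. In 0 PP2Cs all 30 mM libraries lay below all 15 mM libraries, beside 7.85% of annotated and 6.9% of all sequences. Of the 6 PP2Cs called, 1 carried a difference that held in the 18 alternatives that tested it.

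**Figure D4:**
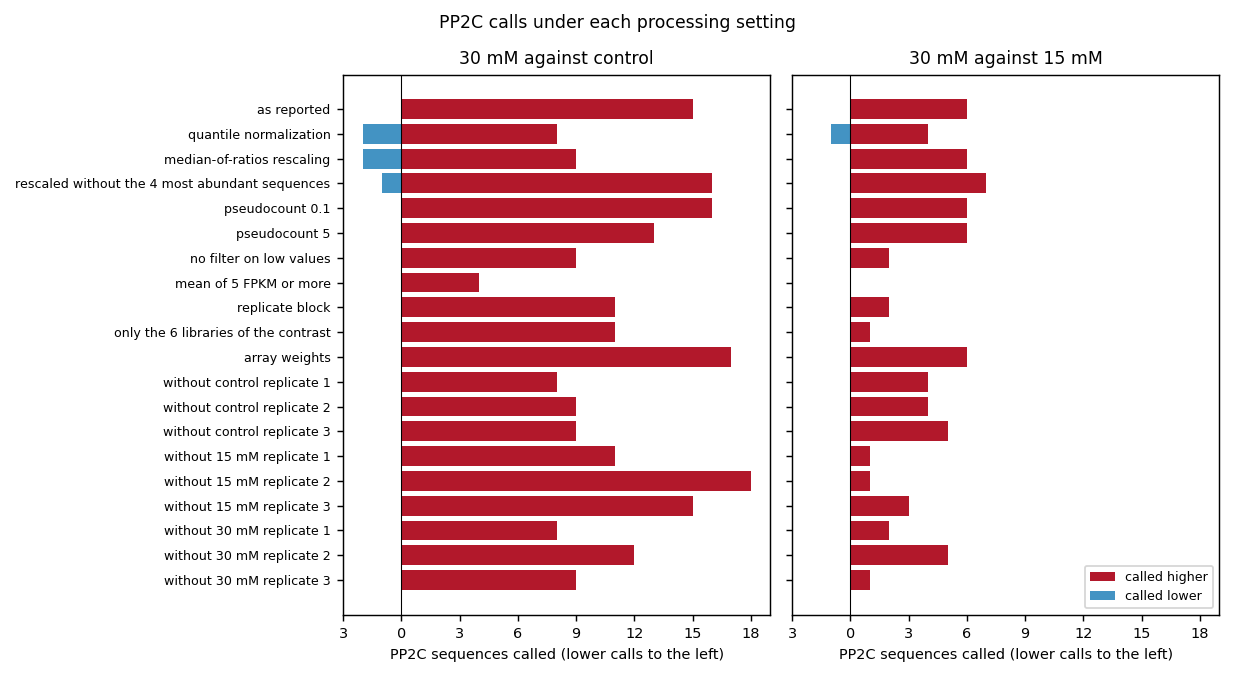
Number of PP2Cs called in the 2 comparisons of 30 mM leaves under each processing setting, with higher calls as bars to the right of 0 and lower calls to the left. At 30 mM against control the number higher is 15 as reported and 8 to 18 when single libraries are left out, and lower calls appear under the 3 rescaled or normalized settings.

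Other phosphatase families give the setting for these counts. Of 41 calcineurin-like phosphoesterases (PF00149), the family to which true calcineurin and other PPP enzymes belong, 12 (29.3%) rose at 30 mM against control and 0 fell, with a median log2 fold change of 0.40. For PP2Cs the share higher was 26.3%, for annotated sequences 21.1% and for all sequences 10%. Of 15 dual specificity phosphatases (PF00782), which in plants include the MAP kinase phosphatases, 1 (6.67%) rose and 0 fell, with a median of 0.20. That sequence, TCK_3_TRINITY_DN5791_c0_g1, had 3.43, 3.39 and 4.31 FPKM in control leaves, 7.86, 6.08 and 7.15 FPKM at 15 mM, and 14.66, 14.03 and 16.36 FPKM at 30 mM, with a log2 fold change of 1.77 ± 0.14 (SE, limma adjusted p = 2.1e-04). Of 8 sequences with a PPM-type domain but not PF00481, 0 were called and the median was 0.08. At 15 mM against control, 0 were called in these families. The differences between families were not tested.

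The KEGG names for the rest of ABA signalling and metabolism (PYR/PYL receptor, SnRK2, ABF, zeaxanthin epoxidase, NCED, xanthoxin dehydrogenase, abscisic-aldehyde oxidase and CYP707A) also had 0 sequences. Broader Pfam families that include such proteins among others were therefore read, chosen after the annotation was seen. The PYR/PYL receptors belong, with many other proteins, to the family PF10604. Its 5 sequences had a median log2 fold change of 0.10 at 30 mM against control. Against 15 mM the median was -0.22, with 1 of the 5 above 0. At 30 mM against control, 21.1% of annotated and 10% of all sequences were higher. In this family 0 fell and 1 (20%) rose. This was TCK_3_TRINITY_DN84134_c0_g1, with 1.17, 0.53 and 1.88 FPKM in control leaves, 3.93, 3.46 and 4.47 FPKM at 15 mM, and 14.94, 10.47 and 8.98 FPKM at 30 mM (log2 fold change 2.53 ± 0.25, SE, limma adjusted p = 6.3e-04). Its groups did not overlap, and the annotation does not say whether it is a receptor.

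Carotenoid oxygenases (PF03055) cleave carotenoids, and the family includes the NCED enzymes of ABA synthesis. Of its 5 sequences, 2 rose and 1 fell at 30 mM against control. T15_3_TRINITY_DN2708_c0_g1, the one that fell, had 68.78, 92.41 and 83.17 FPKM in control leaves, 60.29, 56.03 and 76.09 FPKM at 15 mM, and 15.10, 27.14 and 12.63 FPKM at 30 mM (log2 fold change -2.16 ± 0.26, SE, limma adjusted p = 0.00145). T30_2_TRINITY_DN23026_c0_g1 rose by 1.20 on the log2 scale (limma adjusted p = 0.018) and T30_1_TRINITY_DN23504_c0_g1 by 1.21 (limma adjusted p = 0.0141), and the first lost the call without 30 mM replicate 1 or 3 or control replicate 3 (adjusted p up to 0.0658), the second without 30 mM replicate 1 or control replicate 1 or 2 (adjusted p up to 0.0534). Of 33 bZIP transcription factors (PF00170), the family of the ABF factors, 10 (30.3%) rose and 1 (3.03%) fell, with a median log2 fold change of 0.33. Among annotated sequences 21.1% rose and 2.95% fell, with a median of 0.30, and among all sequences 10% rose and 1.75% fell. The single sequence of the ABA/WDS family (PF02496), small proteins induced by ABA and water deficit, was T30_2_TRINITY_DN418_c0_g1. It had 29.19, 27.87 and 29.90 FPKM in control leaves, 38.04, 37.22 and 42.57 FPKM at 15 mM, and 25.52, 24.06 and 23.29 FPKM at 30 mM, and all 15 mM libraries lay above the others. Neither dose passed the test against control (log2 fold change 0.42, limma adjusted p = 0.206 at 15 mM, and -0.25, adjusted p = 0.173 at 30 mM). Against 15 mM, its log2 fold change at 30 mM was -0.67 ± 0.10 (SE, limma adjusted p = 0.013), with an adjusted p of 0.0578 without 15 mM replicate 1. The single sequence with the GPCR-type ABA receptor domain (PF12430) was not called at 30 mM against control (log2 fold change 0.21). No direct measure of ABA or of phosphatase activity was analysed here.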

How the data were processed

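The authors deposited FPKM for 82125 assembled sequences in 9 libraries, with an annotation table. Per the submitters' processing notes, FastQC 0.11.5, Trimmomatic 0.36 and RSEM were used; sequence names are those of the Trinity assembler, and no source used here gives the settings. FPKM are scaled to the library total, so a change in a few very abundant sequences moves all others. Values were tested as log2(FPKM + 1), which understates changes of low transcripts, with limma 3.58.1 in R 4.3.3: 3 groups in 1 model, trended empirical Bayes, two-sided, 6 residual degrees of freedom. Sequences with at least 0.5 FPKM in 3 libraries were kept, and p-values were Benjamini-Hochberg adjusted over all 44203 of them. The script was tested on simulated data.

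Members and lists were chosen with earlier results of these data known. Named were PP2Cs called in a comparison (at 30 mM against control, the 20 largest changes and every fall), the 5 most abundant and those with a further Pfam domain; exceptions are stated. Tests planned for ABA signalling PP2Cs and ABA lists by KEGG name were not made, as these names had 0 sequences. Same-numbered libraries did not deviate together (r from -0.0128 to 0.0269 over pairs), so the numbers were not taken as pairs. Alternatives were 3 scalings, 2 pseudocounts, 2 filters, array weights, a replicate block, fits of 6 libraries and leaving out each of the 9 libraries. No sequence of a member is printed, since neither the 2 tables nor the reference table holds one.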

Additional observations from a re-analysis of the deposited data

How the results depend on the processing

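At 30 mM against control, the count of 15 PP2Cs called became 9 with no filter on low values, 4 of 10 members tested at a mean of 5 FPKM or more, and 8 to 18 when a library was left out: 8 without 30 mM replicate 1, 9 without 30 mM replicate 3, and 8, 9 and 9 without control replicates 1, 2 and 3. Over all sequences, the 5200 called became 3336 of 82125 with no filter and 2380 of 4548 at a mean of 5 FPKM or more. They became 2350 to 5773 when a library was left out, so the counts of PP2Cs moved with the whole table. At 30 mM against 15 mM, the 6 called became 2 with no filter, 0 at a mean of 5 FPKM or more, 1 when the 6 libraries of the contrast were fitted alone, and 1 to 5 with a library left out (1 without 30 mM replicate 3 or 15 mM replicate 1 or 2, 2 without 30 mM replicate 1, 3 without 15 mM replicate 3). Over all sequences, 1371 became 711 with no filter, 1010 of 4548 at a mean of 5 FPKM or more and 403 in the 6 libraries alone. With a library left out the number was 518 to 1572. At 15 mM against control, the 0 called became 1 at a mean of 5 FPKM or more, 4 with array weights, and 0 to 1 with a library left out. Over all sequences, 44 became 213 of 4548 at a mean of 5 FPKM or more, 793 with array weights, and 5 to 135 with a library left out. With the replicate number as a block, which is no stated pairing, 0 PP2Cs were called at 15 mM against control, 11 at 30 mM against control, and 2 between the doses. The block fit called 4, 3642 and 851 of all sequences in these comparisons.

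The median log2 fold change of PP2Cs at 15 mM against control (0.27) was 0.089 under quantile normalization and 0.063 under median-of-ratios rescaling. It was 0.14 with a pseudocount of 5, 0.44 at a mean of 5 FPKM or more and 0.19 to 0.39 with a library left out. Over all sequences (0.15) the median was 0.0038 and 0.0014 under those 2 scalings and 0.052 with a pseudocount of 5. At a mean of 5 FPKM or more it was 0.26, and with a library left out 0.09 to 0.21. At 30 mM against control the PP2C median (0.42) was 0.16 and 0.17 under those 2 scalings. It was 0.63 with a pseudocount of 0.1, 0.18 with one of 5, and 0.37 to 0.48 with a library left out. Over all sequences (0.18) it was -0.0057 and -0.0039, 0.35, 0.061, and 0.14 to 0.24 in the same order. At 30 mM against 15 mM the PP2C median (0.098) turned to -0.022 under quantile normalization, and was 0.024 to 0.19 with a library left out. Over all sequences (0.048) the median turned to -0.011, and was 0 to 0.10 with a library left out. Among named members at 30 mM against control, T30_2_TRINITY_DN361_c0_g1 (-0.14) ranged from -0.3396 to 0.056 with a library left out (the highest without 30 mM replicate 3), T30_3_TRINITY_DN3513_c0_g1 turned to -0.1355 (quantile) and -0.1312 (median-of-ratios), and TCK_2_TRINITY_DN391_c0_g1 to -0.0328 (quantile). The cause of these changes was not tested, except that a pseudocount shrinks or stretches low values by construction. The planned counts for ABA signalling PP2Cs gave no value, as the annotation names none. FPKM without counts give no counting error, and libraries that may share plants limit all p-values.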
